A study of Zea mays with 3 samples.

Results

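Maize anthers pass through the entry into meiosis between the lengths measured here. At 1.0 mm all cell types of the anther are in place and the pollen mother cells have not begun meiosis, at 1.5 mm prophase I begins, and by 2.0 mm the meiocytes are further into prophase while the tapetum, the secretory layer next to them, differentiates. Around the meiocytes lie the wall layers, the epidermis, endothecium, middle layer and tapetum, which feed and later release the pollen. The probes described here were brighter at 1.5 mm than at both flanking lengths, and they were chosen by their measured stage means. A probe was a member if its mean log2 intensity rose by at least 0.7 from 1.0 to 1.5 mm and fell by at least 0.7 from 1.5 to 2.0 mm in both lines, and if the lines differed by less than 0.58 at each stage. Of 42034 transcript probes on the array, 119 passed both steps in both lines, and 70 of these also met the limit on the line difference. The rises, falls and line differences below are the values that made the choice, and they are given as a description with no test.

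The plants belonged to 2 maize lines, Mu-active and Mu-inactive, named for the state of their Mutator (Mu) transposons, a family of mobile DNA elements. Mu-active anthers of 1.0 mm, 1.5 mm and 2.0 mm were set against Mu-inactive anthers of the same length, with 4 arrays per stage. Each of the 12 arrays carried RNA of both lines, one in Cy3 and one in Cy5, with the dye order turned round in 2 of the 4 arrays of a stage. Plants of both lines were grown in the field, and RNA came from whole anthers, so fewer cells of a type and less RNA per cell cannot be told apart. The labels do not tie a replicate to an array, and matching them by file number would swap Mu-active with Mu-inactive. The line of each channel was taken so that the ratios run with the log2 ratios the authors deposited (Pearson r across probes between 0.988 and 0.991 at the 3 stages), and a swap of the lines at every stage leaves the members as they are because the rule treats both lines alike. A swap at 1 stage alone would keep 56, 48 and 56 of the 70 members at 1.0, 1.5 and 2.0 mm. The labels do not say whether the 4 arrays of a stage came from separate plants, and all 4 lay on 1 slide. Stage and slide cannot be told apart, and no p-value is given between stages.

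Intensities are normalized median foreground signals on a linear scale. A probe was called detected, or ON, at a stage when it exceeded the mean plus 3 SD of the 153 negative control spots in at least 3 of 4 arrays. The arrays at 1.5 and 2.0 mm were dimmer than most at 1.0 mm. At 1.5 mm the raw median exceeded the negative controls' mean by a factor of 1.23 to 1.44 in the Mu-active channels and of 1.28 to 1.42 in the Mu-inactive channels, against 1.46 to 3.05 and 1.62 to 2.21 at 1.0 mm. At 2.0 mm the factors were 1.24 to 1.43 in the Mu-active channels, close to those at 1.5 mm. In the Mu-inactive channels they were 1.21 to 1.84, and arrays 1 and 2, at 1.58 and 1.84, stood above the range at 1.5 mm. Of the members, 68 of 70 were ON at 1.5 mm in both lines, where 61.9% of all probes were, and nothing is read from this count because the rule takes probes that are bright at 1.5 mm. None was ON at 1.5 mm alone, and 64 were ON at all 3 stages in both lines. The share of all probes was not computed for these counts. The cutoffs lay between 78.7 and 90.4 units, below the median of all probes, 112 units. Most members were thus also called ON at the flanking stages, but a call near the cutoff says little about expression there.

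The array annotation gives these probes only expressed sequence names. With the annotation that the study supplied, 23 of the 70 were paired with a gene model, and 15 carried any annotation text. No 2 members shared a gene model or a contig. Probe sequences were at hand for 5 members. They are shown because 1 of them, A_92_P001029, had one of the steadiest profiles and the other 4 belong to members described further on. All are 60 bases long, are given from 5′ to 3′ as listed, and hold no capitals because no part of them was singled out.
A_92_P001029: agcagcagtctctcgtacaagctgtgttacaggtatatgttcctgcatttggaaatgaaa
A_92_P017624: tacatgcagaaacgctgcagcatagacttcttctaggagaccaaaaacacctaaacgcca
A_92_P000416: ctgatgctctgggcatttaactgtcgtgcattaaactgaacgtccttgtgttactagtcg
A_92_P000912: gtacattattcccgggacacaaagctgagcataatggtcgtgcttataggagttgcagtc
A_92_P014488: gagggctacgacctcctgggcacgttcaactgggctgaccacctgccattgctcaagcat

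Their GC content was 41.7% for A_92_P001029, 45% for A_92_P017624 and A_92_P000416, 46.7% for A_92_P000912 and 60% for A_92_P014488. The 2773 probes with a listed sequence had a median of 48.3% and ran from 40% to 60%, so the probe A_92_P014488 lay at the upper end of that range.

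Before the members are described, 5 of them have to be set apart. Each owed its profile to a single array at 1.5 mm, on which the spot was bright in both channels and carried the scanner software's outlier mark. A_92_P032451, first in the order of the rule, had a normalized intensity of 68.0, 180879.5, 82.3 and 80.6 in the Mu-active channels at 1.5 mm and 70.2, 180879.5, 79.9 and 79.0 in the Mu-inactive channels, while its 16 values at 1.0 and 2.0 mm lay between 70.0 and 98.9. In array 1, A_92_P013242 read 66885 in the Mu-active and 20529 in the Mu-inactive channel and A_92_P013399 read 6240.1 and 8084, against 87.1 to 134 in the other arrays of that stage. These spots share column 78 of the array, in rows 169 and 171. A_92_P032378 in array 2 lies 1 row and 1 column from A_92_P032451, and A_92_P015559 was bright in array 1. The local background of A_92_P013399 was 8002.5 and 6363 units in array 1, where the medians over all probes were 48 and 56. Without the marked spots the 5 members changed by -0.49 to 0.23 from 1.0 to 1.5 mm in the Mu-active line and by -0.50 to 0.36 in the Mu-inactive line, and none met the rule. Marked spots at 1.5 mm were present for 5 of 70 members and 0.0595% of all probes. The other 65 members had no marked spot on any of the 12 arrays.

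Across the 70 members the median rise from 1.0 to 1.5 mm was 1.09 log2 units in the Mu-active line and 1.10 in the Mu-inactive line, and the median change from 1.5 to 2.0 mm was -1.18 in both. Over all probes the medians of the same changes lay between -0.01 and 0.00. Without the 5 members with a marked spot they were 1.08, 1.09, -1.11 and -1.14. The median member had 208 units at 1.0 mm, 536 at 1.5 mm and 207 at 2.0 mm in the Mu-active line, and 233, 532 and 216 in the Mu-inactive line. It thus returned to about the level from which it started. At 2.0 mm 18 members were higher than at 1.0 mm in both lines, and 30 were lower in both. The share of all probes was not computed for these counts, and nothing is read from them. Both steps reached 1 log2 unit in both lines in 25 of the 70 members. The mirror image, a fall and then a rise of at least 0.7 in both lines within the same line limit, was met by 69 probes. This was close to the 70 members, 5 of which had a marked spot. Without the line limit 119 probes peaked at 1.5 mm and 82 had a trough there, so the counts were close only within the limit.

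**Figure D1:**
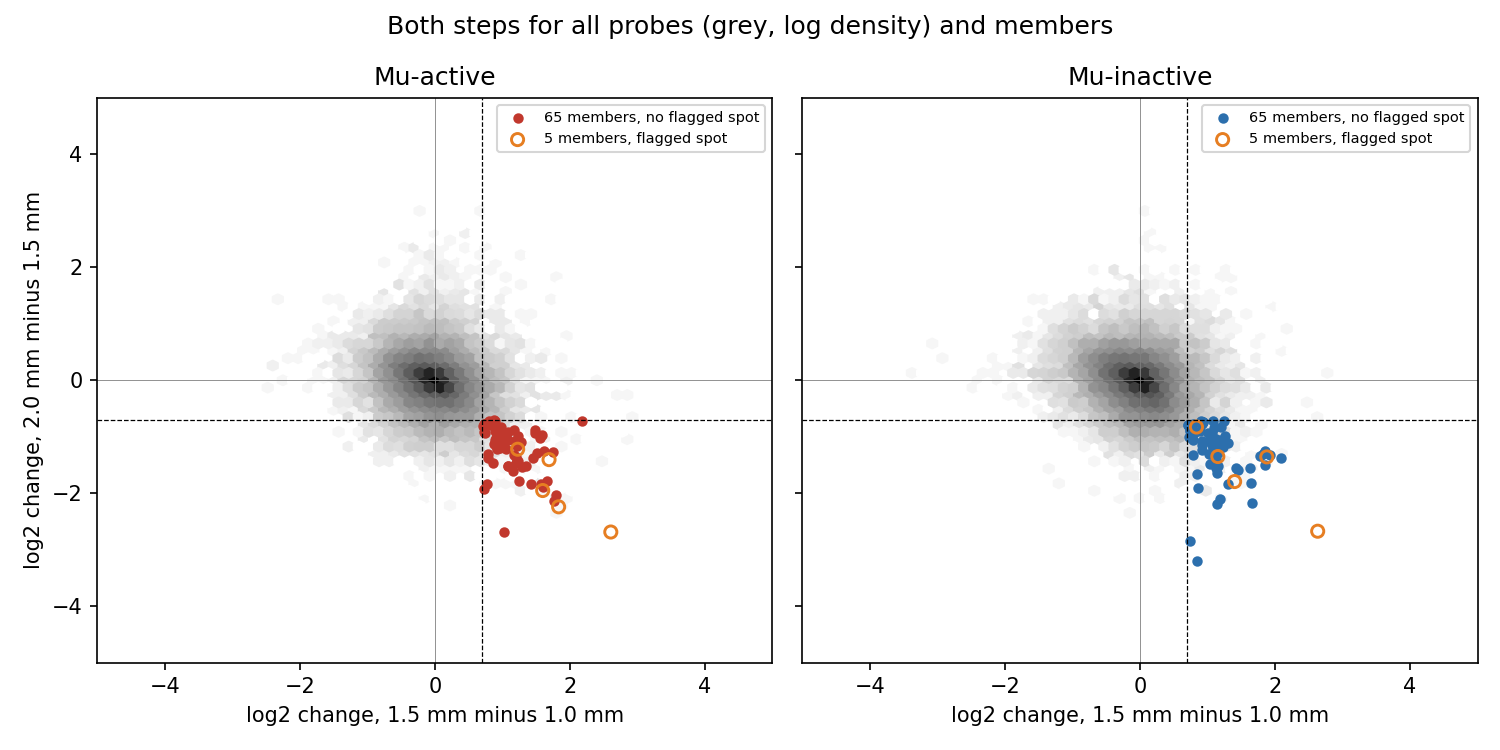
Change from 1.0 to 1.5 mm (x axis, log2) against change from 1.5 to 2.0 mm (y axis, log2) in the Mu-active line (left) and the Mu-inactive line (right), for all 42034 probes (grey, darker where more probes fall) and the members (filled points, or open orange circles for the 5 with a spot at 1.5 mm marked as an outlier). Dashed lines mark the step of 0.7, and the members fill the lower right corner because the rule put them there.

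The spread among the 4 arrays of a stage was large beside these steps. The SD over arrays, taken for each member and then as a median over members, was 0.83 at 1.5 mm in the Mu-active line and 0.51 in the Mu-inactive line, against 0.16 and 0.15 over all probes. Both steps exceeded the summed SDs of the stages they join in both lines in 15 of 70 members, and the share of all probes was not computed. The 4 arrays at 1.5 mm lay above all 8 arrays of the other stages in 11 members in the Mu-active line, where 0.79% of all probes had this pattern, and in 26 members in the Mu-inactive line, where 1.74% did. Both lines showed it in 7 members, against 0.159% of all probes. The rule used these same arrays, so the counts say only which members rest on every array.

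Of those 7 members, 5 were singled out after their values were seen, all but A_92_P003913 and A_92_P005275. A_92_P001029 is paired with the gene model GRMZM5G824831, whose protein is annotated as hypothetical. In the Mu-active line it had 110.2, 107, 111 and 112 units at 1.0 mm, 217, 221, 236 and 156 at 1.5 mm, and 108, 126, 94.4 and 116 at 2.0 mm. Mu-inactive anthers had 113, 126, 119 and 113 units at 1.0 mm, 220.1, 269, 239.6 and 228 at 1.5 mm, and 107, 122, 96.2 and 132 at 2.0 mm. Every 1.5 mm channel was thus brighter than every other channel of its line, and 7 of the 8 stood at 217 units or more. Its log2 rise was 0.90 in Mu-active and 1.02 in Mu-inactive anthers, 1.86-fold and 2.03-fold.

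A_92_P003913, paired with GRMZM2G084195, had the largest steps of the 7. It reached 2254, 1439, 1537 and 1969.5 units at 1.5 mm in the Mu-active line, against 462 to 988 at 1.0 mm and 421 to 655 at 2.0 mm. Mu-inactive anthers reached 1385, 1506, 2954 and 2226 units at 1.5 mm, against 690.0 to 901 at 1.0 mm and 286 to 1002 at 2.0 mm. The lowest 1.5 mm array lay above the highest of the others in both lines. Its fall after 1.5 mm, at -1.78 in the Mu-active and -1.83 in the Mu-inactive line, was larger than its rise of 1.25 and 1.31, so it ended below its level at 1.0 mm.

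A_92_P002068 and A_92_P007032 carry no gene model. The first had 974, 982, 865 and 815 units at 1.5 mm in the Mu-active line, against 374 to 516 at 1.0 mm and 396 to 452 at 2.0 mm. Its 1.5 mm values in the Mu-inactive line were 735, 727, 943 and 915 units, against 302 to 406 and 300.2 to 566. With an SD of 0.13 at 1.5 mm it was the most even member in the Mu-active line. A_92_P007032 had 512, 396, 340.3 and 379 units at 1.5 mm in the Mu-active line, against 134 to 222 at 1.0 mm and 176 to 221 at 2.0 mm. Its Mu-inactive arrays had 449, 396, 414 and 444 units, against 143 to 259 and 148 to 292.

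The other 3 were A_92_P007730, A_92_P007750 and A_92_P005275, which also have no gene model here. A_92_P007730 had 769, 1142, 975 and 622 units at 1.5 mm in Mu-active anthers and 669, 1191, 956 and 880.0 in Mu-inactive anthers, and its other values did not pass 562 and 612 units. A_92_P007750 stood between 829.9 and 1241 units in Mu-active and between 759 and 1013 in Mu-inactive anthers at 1.5 mm, and fell to 299 to 470.3 and 271 to 386 units at 2.0 mm. A_92_P005275 was second to last in the order of the rule, with a rise of 0.81 and 0.71, yet its 225 to 349.9 units in Mu-active and 245 to 309 in Mu-inactive anthers at 1.5 mm did not overlap the 131 to 186 units of the other stages. Place in the order of the rule and separation of the arrays were therefore different things.

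**Figure D2:**
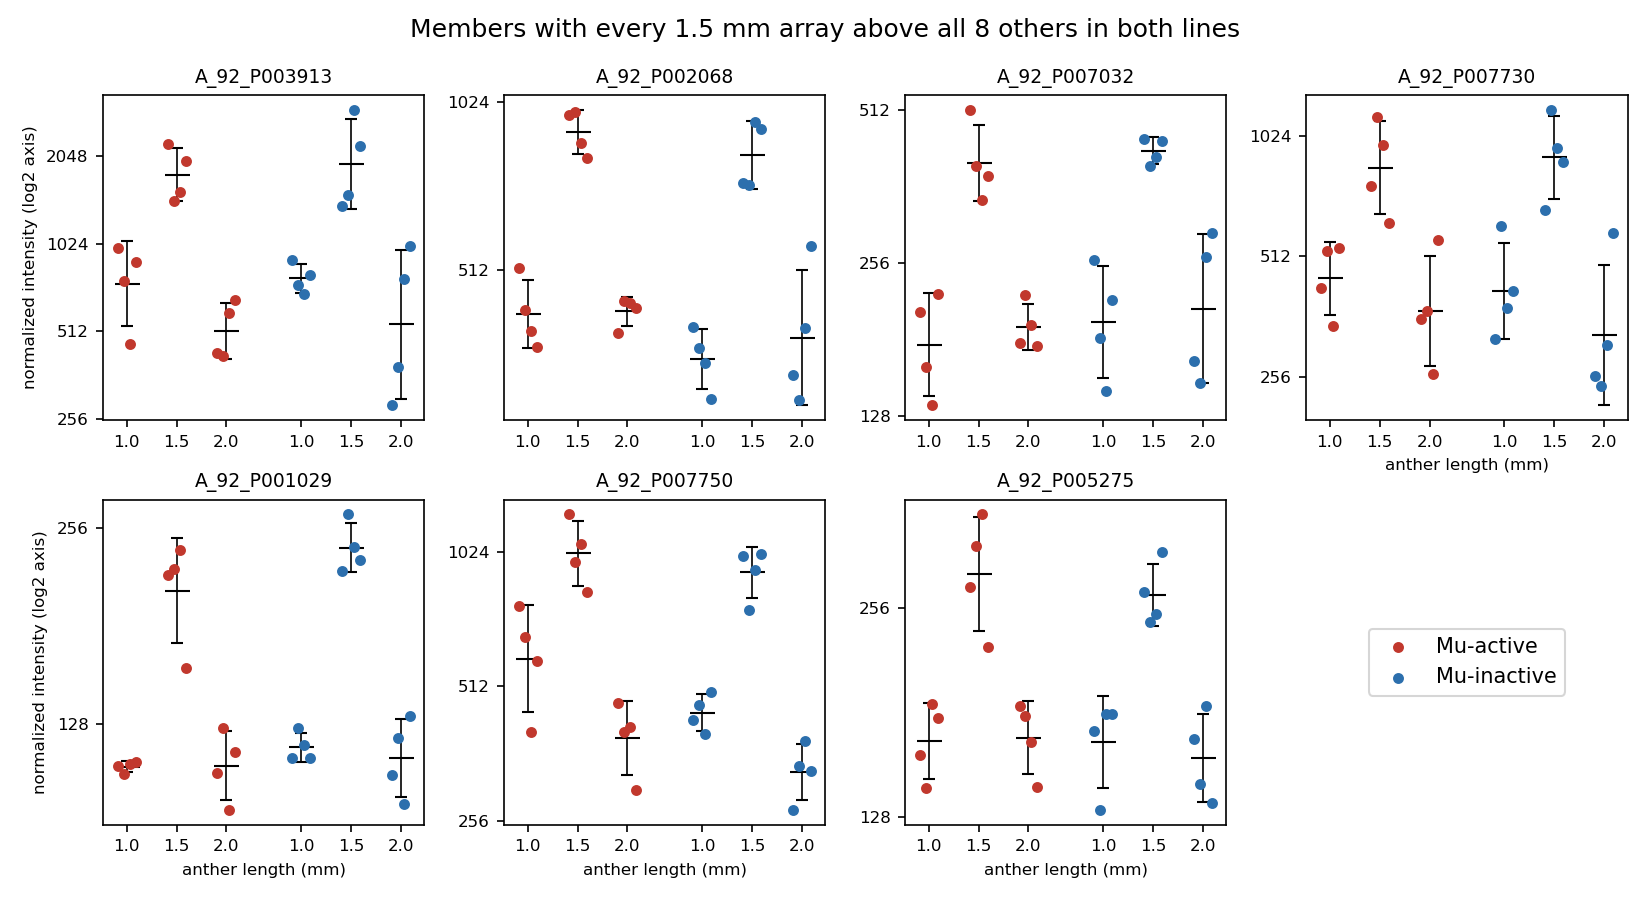
Normalized intensity (y axis, log2 scale) of the 7 members whose 4 arrays at 1.5 mm lay above the 8 other arrays in both lines, by anther length (x axis, mm), Mu-active left and Mu-inactive right in each panel. Each point is 1 array, the horizontal bar is the mean of the log2 values and the whiskers are 1 SD (n = 4).

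Most other members did not stay apart, and the arrays in which they were high or low were often the same ones. At 1.0 mm the Mu-active channel of array 4 was the highest of the 4 in 50 of 70 members, where it was the highest for 23% of all probes. At 1.5 mm the Mu-active channel of array 4 was the lowest in 47 members, against 27.1% of all probes. Both held for 32 members, a count for which the share of all probes was not computed. In the Mu-inactive line array 1 was the highest at 1.0 mm in 43 members, against 31.4% of all probes, and array 3 the lowest at 1.5 mm in 34, against 23.1%. The median of the members in the Mu-active channels was 182, 171, 202 and 479 units at 1.0 mm, 574, 753, 879.8 and 315 at 1.5 mm, and 186, 220.4, 203 and 261 at 2.0 mm. In the Mu-inactive channels it was 331, 246, 215 and 214 units at 1.0 mm, 662, 776, 427 and 532 at 1.5 mm, and 202, 223, 211 and 279.6 at 2.0 mm. The median of all probes was 112 units in each channel.

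These values show that 1 Mu-active channel at 1.0 mm was brighter for the members than 1 Mu-active channel at 1.5 mm. Of the 70 members, 14 were above all 8 arrays of the other stages in the Mu-active channel of array 4 at 1.5 mm, against 37, 54 and 56 in arrays 1, 2 and 3. Of all probes this held for 8.98% in array 4 and for 14.3%, 13.7% and 13.2% in arrays 1, 2 and 3. In the Mu-inactive channels it held for 53, 61, 36 and 53 members in arrays 1 to 4, and for 13%, 14.7%, 14.7% and 12% of all probes. The rule used these values, and nothing is read from the counts beyond the order of the arrays. The order differed between the channels of one array, since the Mu-active channel of array 4 at 1.5 mm was the lowest in 47 members and its Mu-inactive channel in 9. Without array 4 at both 1.0 and 1.5 mm, an alternative chosen after seeing the data, 100 probes met the rule, and 39 of these were among the 70.

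**Figure D3:**
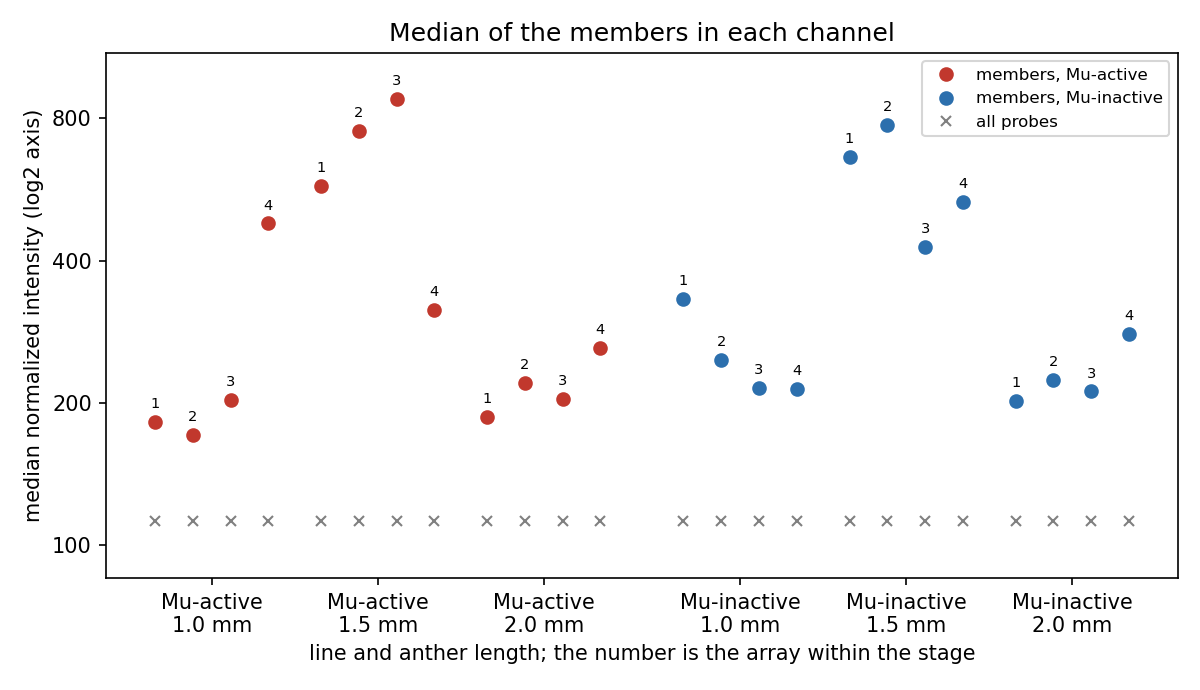
Median normalized intensity of the 70 members (y axis, log2 scale) in each channel, Mu-active left and Mu-inactive right, with the array number above each point and the median of all probes as crosses. Array 4 of the Mu-active line stands at 479 units at 1.0 mm and 315 units at 1.5 mm, and the other 3 Mu-active arrays at 1.5 mm stand between 574 and 879.8 units.

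**Figure D4:**
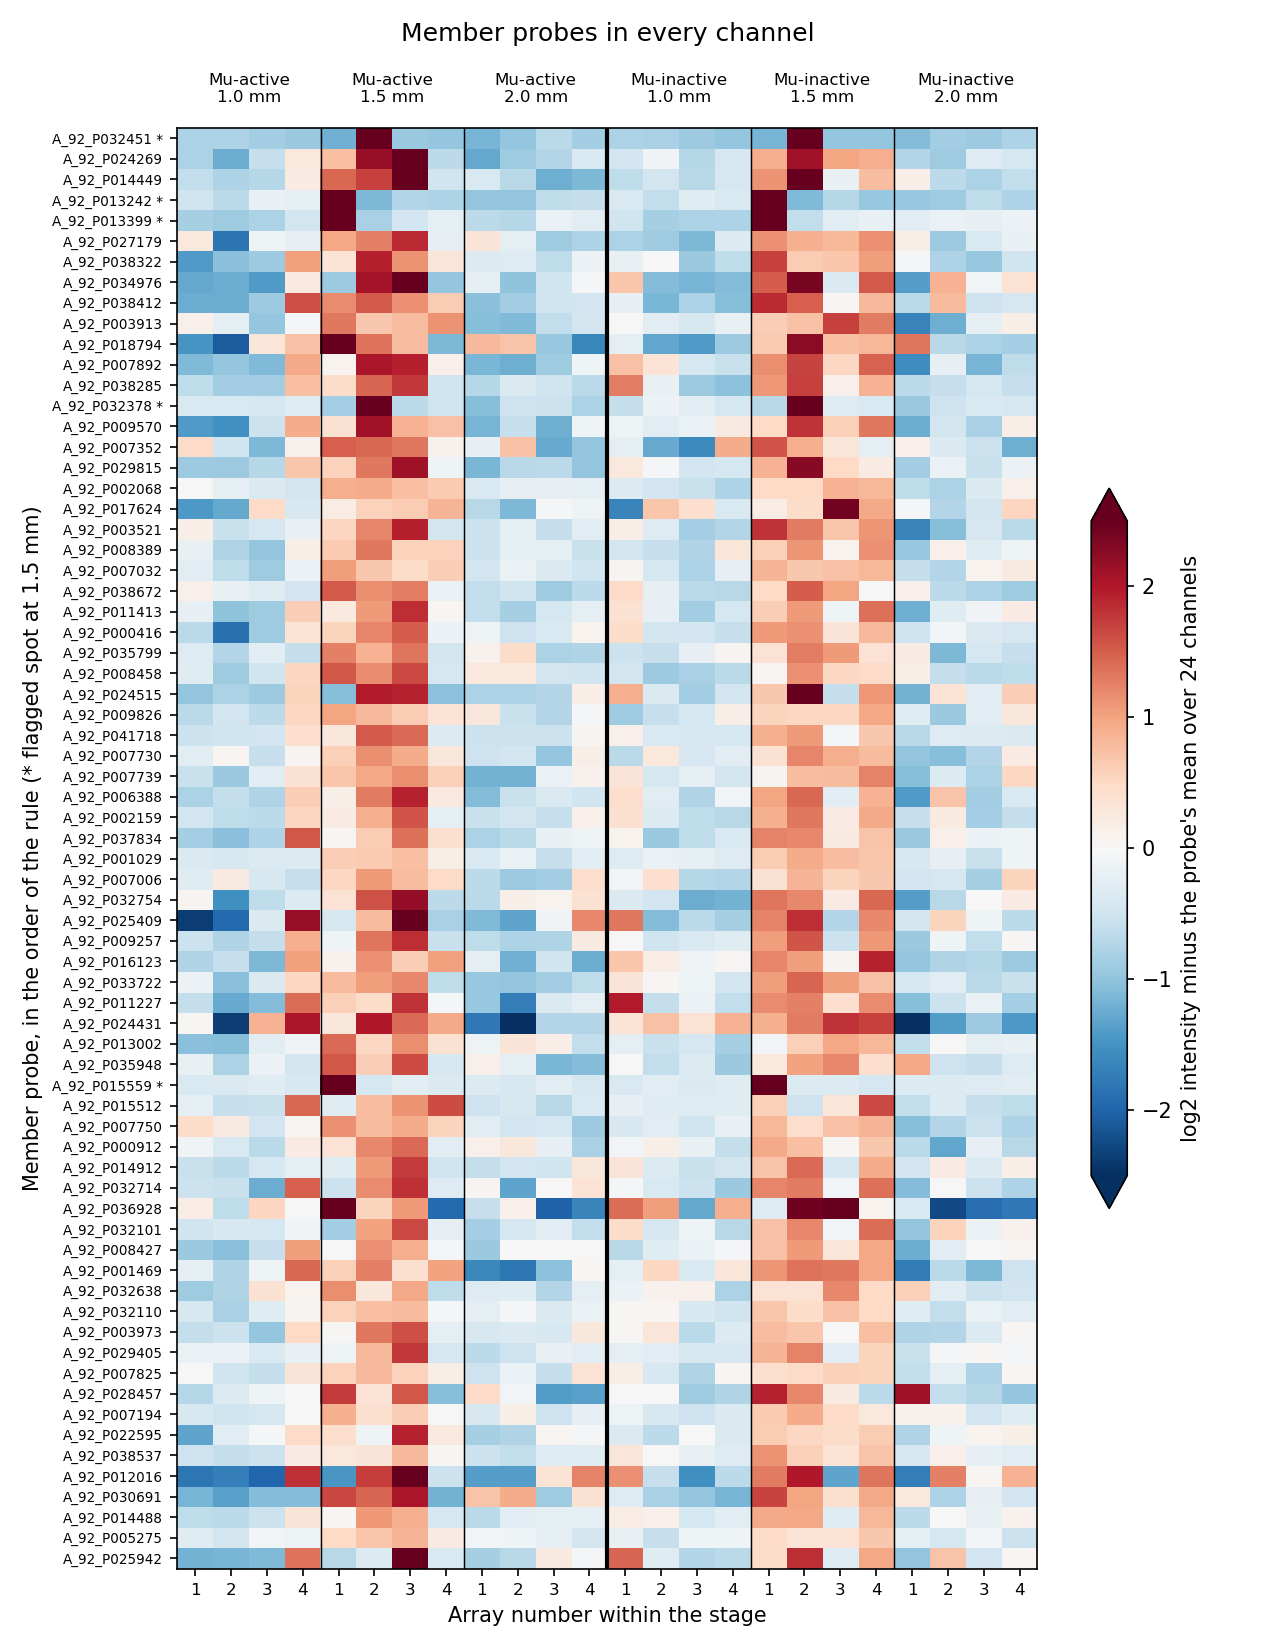
Log2 intensity of the 70 members (rows, in the order of the rule) in all 24 channels (columns, Mu-active left, array number below), each minus the mean of its row. The 1.5 mm blocks are red in both lines, except for array 4 of the Mu-active line and, in part, array 3 of the Mu-inactive line, and the 5 members with an asterisk, whose spot was marked as an outlier, are dark red in 1 array of each line.

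The values of 3 members show how far such a pattern could go. A_92_P025942, the last member, had 88.7, 90.0, 94.2 and 517 units at 1.0 mm and 124, 159, 1468 and 154 at 1.5 mm in the Mu-active line, so its mean at 1.5 mm rested on array 3. In the Mu-inactive line it had 549, 162, 122 and 126 units at 1.0 mm, and 277, 721, 161 and 392 at 1.5 mm. A_92_P012016, singled out after its values were seen, had 84.3, 90.9, 74.6 and 1052 units at 1.0 mm in the Mu-active line, and 107, 982, 2287 and 204 at 1.5 mm. Its groups overlapped in both lines although its log2 rise was 1.59 and 1.24. A_92_P034976, eighth in order, had 425, 435, 389 and 1214 units at 1.0 mm, 552, 4384, 8562 and 530.4 at 1.5 mm, and 866, 515, 733 and 1013 at 2.0 mm in the Mu-active line, where arrays 1 and 4 at 1.5 mm lay within the range of the other stages.

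A_92_P024269, paired with GRMZM2G130764, led the members without a marked spot. It had 1259.8, 3363, 4340.0 and 473 units at 1.5 mm in Mu-active anthers, against 315 to 893 at 1.0 mm and 309 to 572 at 2.0 mm, and 1400.5, 3199, 1478 and 1399 units at 1.5 mm in Mu-inactive anthers, against 455 to 704 and 404 to 597. The Mu-inactive arrays did not overlap, and in the Mu-active line array 4 fell inside the range of the other stages. A_92_P018794, paired with GRMZM2G094017, had 21758, 7225, 4788 and 1293 units at 1.5 mm in the Mu-active line and 4428, 13548, 4756 and 5020.0 in the Mu-inactive line. Its 1.0 mm values ran from 669 to 4670.3 and from 1059.6 to 2404 units, and its 2.0 mm values from 916 to 4953 and from 1572 to 7102 units. At 1.5 mm array 4 in the Mu-active line lay inside both flanking ranges, and in the Mu-inactive line array 1 at 2.0 mm was above 3 of the 4 arrays at 1.5 mm. A_92_P038322, A_92_P038412 and A_92_P007892 have no gene model and rose by 1.51, 1.57 and 1.61 in the Mu-active line and by 1.46, 1.85 and 1.19 in the Mu-inactive line. In each of these 3 the Mu-active channel of array 4 was the highest at 1.0 mm, at 668, 613 and 566 units, while the other 3 arrays lay between 84.3 and 175 units.

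Members with a stress or hormone annotation came next. A_92_P014449 (GRMZM2G383699) is annotated as an ABA/WDS induced protein, a family of small hydrophilic proteins named for induction by abscisic acid and water deficit. It had 484, 591, 1005 and 128 units at 1.5 mm in Mu-active anthers and 394, 1083, 158 and 308 in Mu-inactive anthers, and no more than 209 at 1.0 mm or 201 at 2.0 mm. Its log2 rise was 1.76 and 1.63, and the lowest array at 1.5 mm lay inside the range of a flanking stage in each line. A_92_P028457 (GRMZM2G106622) encodes an ABA-responsive protein with a GRAM domain, a fold found in membrane-associated proteins. It had 899, 344, 785 and 128 units at 1.5 mm in the Mu-active line and 1027, 624, 314 and 172 in the Mu-inactive line, and at 2.0 mm a single Mu-inactive array, with 1168 units, was brighter than all of these. A_92_P017624, whose contig is annotated as weakly similar to a harpin-induced protein, a family known from plant defense in Arabidopsis and tobacco, had 258, 338, 353 and 408 units at 1.5 mm in the Mu-active line, against 84.1 to 317 at 1.0 mm, where the ranges overlapped, and 104 to 218 at 2.0 mm. In the Mu-inactive line its values of 257, 310.4, 1205 and 438 overlapped those at 1.0 mm, which ran from 72.0 to 366. The other probe for this contig did not show the profile.

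Among the members with a metabolic or housekeeping annotation, A_92_P003521 (GRMZM2G124417) stands for proteasome subunit beta type 1, part of the catalytic core that degrades ubiquitin-tagged proteins. It had 673, 1090.5, 1787 and 339.5 units at 1.5 mm in Mu-active anthers, where array 4 lay within the 306 to 524 units of the other stages. In Mu-inactive anthers the values were 1634, 1152, 756 and 1002 units, above every array at 1.0 mm (257 to 525) and 2.0 mm (148 to 347). A_92_P032754 (GRMZM2G029385) is annotated as a subunit of the mitochondrial inner membrane import translocase, which brings nuclear-encoded proteins into the mitochondrion. It rose by 1.48 and 1.86 and was also lowest at 1.5 mm in Mu-active array 4 and Mu-inactive array 3. Its 1.5 mm values were 1641, 3873, 5832 and 812 units in the Mu-active line. There arrays 1 and 4 lay inside the 799.6 to 1657 units at 2.0 mm, and array 4 also inside the 444 to 1339 at 1.0 mm. In the Mu-inactive line the values were 3220.5, 2923, 1480.5 and 3440.3 units and did not overlap the other stages. A_92_P032638 (GRMZM2G051806) is annotated as hexokinase-1, which phosphorylates glucose and in Arabidopsis also serves as a glucose sensor. Its rise was small for a member, at 0.73 and 0.78. At 1.5 mm it had 14946, 8184, 12977 and 4316 units in the Mu-active line and 8626, 8645, 15445 and 9439 in the Mu-inactive line, and both overlapped their other stages.

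A_92_P027179 (GRMZM2G090177) carries a C2 domain, which binds calcium and membrane lipids. At 1.5 mm its Mu-active arrays had 3192, 3915, 5946 and 1421 units, and array 4 lay inside the ranges of 462 to 1955 at 1.0 mm and 884 to 2032 at 2.0 mm. Its Mu-inactive arrays had 3602, 3028, 2898 and 3577 units and did not overlap those at 1.0 mm (749.6 to 1288) or 2.0 mm (871 to 1798). A_92_P038672 (GRMZM2G106950) is annotated with a ribulose-phosphate binding barrel, a fold shared by enzymes of several pathways. It rose by 1.16 and 1.02 to between 167 and 543 units in the Mu-active line and between 189.8 and 541 in the Mu-inactive line. Both overlapped 1.0 mm, where the highest arrays had 206 and 264 units. A_92_P000912 (GRMZM2G147446), an integral membrane protein-like transcript, rose by 0.91 and 0.78. Its lowest 1.5 mm arrays, at 388 and 490 units, lay below the highest at 1.0 mm, 546 and 526 units. A_92_P000416 (GRMZM2G169044), uncharacterized, reached 8236, 12977, 15988 and 5044 units at 1.5 mm in the Mu-active line and 11691, 12341, 7009 and 9824 in the Mu-inactive line. Array 4 at 1.0 mm, with 7076 units, overlapped these in the Mu-active line and array 1 at 1.0 mm, with 7645, in the Mu-inactive line.

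The annotation lists match words of the annotation, so a list can miss genes of its role. Members were 70 of 42034 probes, and text was present for 3935 of all probes and 15 members. At such shares lists of these sizes would hold few members or none, so nothing is read from an empty list. Of 15 lists by role, 13 held no member: those for meiosis (2 probes), cell division (39), pollen wall and lipid (39), callose and glucan (11), cell wall (44), transcription factors (164), small RNA (4), hormone (56), sugar (20), proteolysis (78), stress (55), transport (164) and transposon (10). The signaling list held 1 of 283 probes, the hexokinase through the word kinase, and the photosynthesis list held 1 of 14, the probe with the barrel fold, through the word ribulose. The medians of the photosynthesis list rose at both steps, by 0.19 and 0.45 in the Mu-active line and by 0.66 and 0.49 in the Mu-inactive line, unlike the profile of its member. Hormone, stress and proteolysis words missed the ABA, harpin and proteasome members because the words of their annotations are not in those lists. The marker lists used as a check of the tissue held few probes. Of these, 2 of 3 for meiocytes, 10 of 14 for tapetum, 5 of 7 for pollen and 12 of 14 for green tissue were ON at 1.5 mm in both lines. The share of all probes was 61.9%, so these small counts do not tell the tissues apart. The green tissue list is the photosynthesis list.

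The choice of the members did not use the values of a second probe for the same transcript. Such a probe was read on the same 12 arrays, so it shares their slides and any pattern among the arrays. Of the 70 members, 13 had another probe, 11 by the same contig name and 2 by the same gene model. In 9 of 13 the other probe also had a higher mean at 1.5 mm than at both other stages in both lines, a sign pattern shown by 19.1% of all probes, and 1 of 13 passed both steps of 0.7. Of those 9, A_92_P007670 and A_92_P040783 were not ON at 1.5 mm in both lines. The probe that passed both steps was A_92_P023442, the other probe of the contig of member A_92_P007194 (TC289201). It had 16782, 12599, 14523 and 4033 units at 1.5 mm in the Mu-active line, against 608 to 15669 at 1.0 mm and 927 to 4026 at 2.0 mm. In the Mu-inactive line it had 10108, 22007, 12902 and 8006 units at 1.5 mm, against 1893 to 9137 and 1397 to 10716. Its rises were 1.53 and 1.27 and its changes after 1.5 mm were -2.47 and -2.11. It was not a member because the lines differed by -0.59 at 2.0 mm. The member itself had 113 to 208 units in Mu-active and 136 to 216 in Mu-inactive anthers at 1.5 mm.

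For the contig TC284784, member A_92_P008458 rose by 1.27 and 1.26 and its other probe, A_92_P027841, by 0.63 and 0.66. In the Mu-active line A_92_P023442 and A_92_P027841 were highest at 1.0 mm in array 4, with 15669 and 169 units. At 1.5 mm both were lowest in array 4, with 4033 and 97.4 units. The other probe of GRMZM5G824831, A_92_P035049, had a mean of 9695.6 units in Mu-active and 11839 in Mu-inactive anthers at 1.5 mm. It rose by 0.29 and 0.32 and then changed by -0.45 and -0.49, the same signs as A_92_P001029 at a smaller size on the log2 scale. For 4 members the other probe went against the profile in at least 1 step: A_92_P003216 for A_92_P017624 changed by -0.10 and -0.27 and then by 0.27 and 0.50, and those of A_92_P006388, A_92_P022595 and A_92_P015559, the last a member with a marked spot, had the other sign in at least 1 change. The other 6 probes with the sign of the member rose by 0.04 to 0.34.

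**Figure D5:**
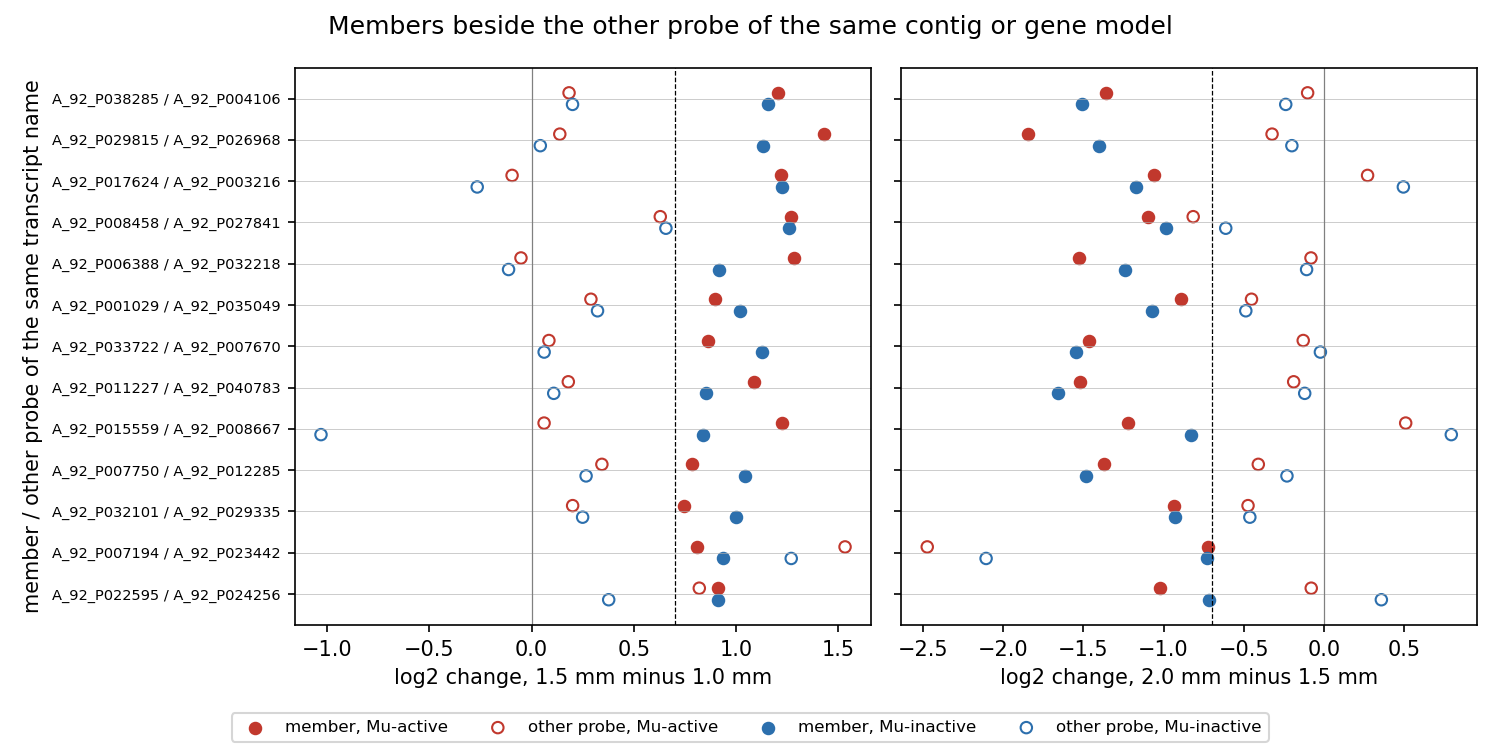
Log2 change from 1.0 to 1.5 mm (left) and from 1.5 to 2.0 mm (right) for 13 members (filled) and the other probe of the same contig or gene model (open). Red is Mu-active and blue Mu-inactive, the dashed lines mark the step of 0.7, and only the open points of A_92_P023442 lie beyond it in both lines and both changes.

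The spots around the members were checked for a shared change. The median of the 12 to 24 nearest transcript spots, up to 2 rows and 2 columns away, had a median rise of 0.02 in the Mu-active and 0.03 in the Mu-inactive line over the 70 members, and a median change of -0.02 in both after 1.5 mm. No member had neighbors whose median rise reached 0.7, and the highest was 0.26. Other members were left out of the neighbors, so marked spots close together were not set against each other. A median over so many spots cannot show a blemish of a few spots. Marked members passed it too, with Mu-active neighbor rises of 0.02 for A_92_P032451 and -0.23 for A_92_P013242. Neighbors' medians rose and then fell in both lines for 27 of 70 members, and a share for other probes was not computed.

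The lines were close at every stage, as the rule required. The line difference of the members, Mu-active minus Mu-inactive, ran from -0.58 to 0.43 at 1.0 mm, from -0.48 to 0.46 at 1.5 mm and from -0.54 to 0.58 at 2.0 mm, with a median of -0.07 at each. In a limma fit over all probes none of the 70 reached an adjusted p under 0.05 at any stage (Benjamini-Hochberg), where 0.378% of probes did at 1.0 mm, 0.454% at 1.5 mm and 0.866% at 2.0 mm. At an unadjusted p under 0.05 there were 2, 1 and 2 members, against 8.86%, 10% and 12.3% of all probes. For the change of the line difference between stages 0 members were called, where 0.00952% of probes were called from 1.0 to 1.5 mm and 0% from 1.5 to 2.0 mm. Since the limit of 0.58 was part of the choice, nothing is read from these counts.

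At the threshold the order of the rule ran without a gap. The last 3 members, A_92_P014488, A_92_P005275 and A_92_P025942, had a smallest step of 0.71, 0.71 and 0.70. The next 3 probes, A_92_P007833, A_92_P004247 and A_92_P006703, stood just under it at 0.70 (rounded), 0.69 and 0.69. A_92_P014488, whose contig is annotated with binding activity, had 163, 336, 293 and 118 units at 1.5 mm in the Mu-active line and 304, 309, 128 and 282 in the Mu-inactive line, and both overlapped 1.0 mm. A_92_P024431, singled out after its values were seen, had the largest change after 1.5 mm among members without a marked spot, -2.69 in the Mu-active and -3.20 in the Mu-inactive line. It fell to between 894 and 3824 units in the Mu-active and between 599 and 3410.1 in the Mu-inactive line at 2.0 mm. At 1.5 mm it had 7698 to 25600.3 and 11715 to 22188 units, and the arrays at 1.5 and 2.0 mm did not overlap. At 1.0 mm it had 6520, 1244, 11610 and 25962 units in the Mu-active line, where array 4 was above every 1.5 mm array. The Mu-inactive values at 1.0 mm, 8096 to 11691 units, lay just below those at 1.5 mm.

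Membership depended on single arrays. Leaving out each of the 12 arrays in turn and applying the rule again left 15 of the 70 members in the set every time, and 9 of these also met it with median scaling in place of quantiles and with the scanner software's processed signals. Of the 7 members with separated arrays, 5 were among the 15, namely A_92_P003913, A_92_P002068, A_92_P007032, A_92_P007730 and A_92_P001029. Of these 5, A_92_P002068 did not meet the rule with median scaling or with processed signals, and A_92_P007730 did not meet it with median scaling. Without array 4 at 1.5 mm 112 probes met the rule, and 57 of these were among the 70. Without array 3 at 1.5 mm 48 met it, 33 of them among the 70, and without array 2 it was 52 and 43. With the median of the 4 arrays in place of the mean 75 probes met the rule, and 39 of these were among the 70.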

How the data were processed

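Two-colour Agilent arrays of maize anthers were used, 4 per stage, with Mu-active and Mu-inactive RNA on each. The authors deposited scanner output from Feature Extraction 9.5.3.1 with the intensity of each spot (median foreground, background and processed signals), outlier and saturation marks, and a log10 ratio. A table of log2 ratios deposited by the authors was used only to settle which channel held which line. Median foreground intensities without background subtraction were normalized by loess within arrays and quantiles between channels in limma 3.58.1 (R 4.3.3), with Python 3.11.15 for tables. The members were all probes that met the rule, and the cap of 200 was not reached. The line difference was tested with limma's moderated test, stage coefficients and a dye term, with Benjamini-Hochberg adjustment over all 42034 probes. The procedure was tested on simulated data with independent noise. These held no single bright spots and no array pattern shared among members, so that test does not cover either. The number of arrays limits the precision. Gene models, annotation text and probe sequences came from the study's supplementary tables. Named members were the first 12 in the order of the rule, the first 3 in each gene list, the last 3 with the next 3 probes, and members sharing a gene (none did), and all others named were chosen after their values were seen. The members and lists were chosen with earlier results of these data known. Where replicates are not stated to come from separate plants, p-values measure only the spread between arrays. Alternatives were normexp background correction, control spots with weight 0, median scaling, processed signals, other steps, no limit on the line difference, lines exchanged at 1 stage, no dye term, the deposited log10 ratio, leaving out marked spots, undetected probes or single arrays, and, chosen after seeing the data, the median of the arrays and leaving out pairs of arrays.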

Additional observations from a re-analysis of the deposited data

Results flagged for a closer look

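In 20 of 102 groups of 4 arrays, over 17 named members, 1 array lay far from the other 3. The measure is the gap to the nearest array divided by the range of the group on the log2 scale. A rate of about 1 in 20 holds only for independent groups of normal values that were not selected. These members were chosen by the same values, and the 2 channels of an array share a spot. The count is therefore not set against that rate, and no share over all probes is given. The 3 named members with a marked spot gave the gaps at 1.5 mm in both lines, 0.976 in Mu-active and 0.983 in Mu-inactive anthers for A_92_P032451, 0.960 and 0.952 for A_92_P013242, and 0.908 and 0.933 for A_92_P013399. At 1.0 mm the Mu-active channel of array 4 stood above the others for A_92_P014449 (0.845), A_92_P034976 (0.903), A_92_P038412 (0.886), A_92_P007892 (0.928), A_92_P014488 (0.870) and A_92_P025942 (0.966), and the Mu-inactive channel of array 1 for A_92_P034976 (0.954). At 1.5 mm the Mu-active channel of array 3 stood above the others for A_92_P025942 (0.899). In the Mu-inactive line at 1.5 mm array 2 was high for A_92_P024269 (0.934) and A_92_P018794 (0.888), array 3 was high for A_92_P032638 (0.845), and array 3 was low for A_92_P014488 (0.896). At 2.0 mm array 1 was high in the Mu-inactive line for A_92_P018794 (0.928), and a Mu-active array was low for A_92_P014488 (0.898).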

How the results depend on the processing

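No paired analysis was possible because each stage is 1 deposited sample, the arrays carry no replicate identity across stages, and the lines are already paired within each array. The number of probes that met the rule, 70, became 37 with median scaling (36 shared), 392 with processed signals (38 shared), 147 with a step of 0.58, 25 with a step of 1.0 and 119 without the line limit. Leaving out single arrays gave 48 to 112 probes, with 112 without array 4 and 48 without array 3 at 1.5 mm. The median change of the members from 1.5 to 2.0 mm in the Mu-inactive line was -1.58 with processed signals, against -1.18. The members with separated arrays in both lines, 7, fell to 3 with processed signals and stood at 6 with median scaling. With lines exchanged at 1 stage 67, 69 and 67 probes met the rule. By limma 0 members had a line difference at any stage without the dye term, with the scanner software's log ratio and without the arrays of each number in turn at all stages, the alternatives run for this result. For A_92_P032451 leaving out marked spots gave rises of -0.19 in Mu-active and -0.17 in Mu-inactive anthers and later changes of 0.11 and 0.13, and the median of the arrays -0.12, -0.12, 0.0232 and 0.0902. Its values without single arrays ran from -0.19 to 3.60 and from -0.17 to 3.61, and from -3.68 to 0.11 and from -3.65 to 0.13. For A_92_P013242 these were -0.49, -0.50, 0.080 and 0.11 without marked spots, and -0.40 and -0.46 (rises) and 0.00664 (later change, Mu-inactive) with the median. Its values without single arrays ran from -0.49 to 2.69 and from -0.50 to 2.10, and from -3.10 to 0.080 and from -2.49 to 0.11. For A_92_P013399 normexp gave -0.10 (rise, Mu-active) and 0.43 and 0.51 (later changes), leaving out marked spots 0.059 and 0.16, and the median 0.038 (later change, Mu-inactive). Its later changes without single arrays ran from -1.99 to 0.059 and from -1.95 to 0.16. For A_92_P025942 the later change in the Mu-active line ran from -1.05 to 0.13, with 0.13 without array 3 at 1.5 mm. The cause was not tested. Of the values of the named members under alternatives, 1098 stayed within 1 SD, 26 moved further and 32 changed sign. The SD is that of the probe's own 4 arrays at 1.5 mm, which was 5.60 for A_92_P032451 in the Mu-active line. Leaving out an array at 2.0 mm cannot change a rise, and leaving out one at 1.0 mm cannot change a later change. The 1098 are therefore no measure of stability. The low signal over background at 1.5 and 2.0 mm limits what low members can show.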
